A study of Mus musculus with 8 samples.

Results

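The transcripts described here encode the proteins of the cytosolic ribosome, matched by gene symbol alone: every listed transcript with a symbol of the form Rpl, Rps or Rplp followed by its number, or Rpsa. This rule found 56 of the 10987 transcripts in the deposited table, 36 of the large subunit (Rpl and Rplp) and 20 of the small subunit (Rps). They were followed through 8 libraries made from 2 cultures of mouse oligodendrocyte progenitor cells (OPCs) and from the 2 cultures of oligodendrocytes differentiated from them, with RNA-seq and ribosome footprints from each culture. All cells were 129S/SvEv and derived from epiblast stem cells in vitro, so that they model the lineage in a dish and not in the brain. OPCs were grown in DMEM/F12 with N2 Max and B27, 20 ng/mL bFGF and 20 ng/mL PDGFA. Oligodendrocytes were grown in the same basal medium and supplements with 100 ng/mL noggin, 100 ng/mL IGF-1, 10 uM cyclic AMP, 10 ng/mL NT3 and 40 ng/mL T3, a thyroid hormone. Cells to be differentiated were first passaged without bFGF, and for profiling they were seeded more densely than OPCs. Cell type, medium, these passages and seeding density therefore change together and cannot be told apart. In ribosome profiling, a nuclease (here micrococcal nuclease) removes the mRNA that no ribosome covers, and the protected fragments are sequenced beside the total RNA. Values are FPKM, fragment numbers divided by feature length and by the mapped total, over the whole transcript for RNA-seq and over the coding sequence (CDS) for footprints. Ribosome density (RD) is the footprint FPKM of a culture divided by its RNA FPKM, a value relative to the other transcripts of that culture and not a number of ribosomes.

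Each ribosome holds, as a rule, a single copy of most of its proteins, and the subunits are assembled in the nucleolus from these proteins and rRNA before they join on an mRNA. The mRNAs of the ribosomal proteins share a 5′ terminal oligopyrimidine (TOP) tract, a C at the cap followed by a run of C and T, through which growth factor signalling to the kinase complex mTORC1 and the protein Larp1 sets how many of them are on ribosomes. Dividing progenitors make many ribosomes. A cell that leaves the cycle commonly makes fewer, and TOP mRNAs are the classic example of a family that moves on and off ribosomes together.

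The annotated starts of the members with the lowest and highest RD change are printed to show how much the pyrimidine content there varies. Within the 30 bases printed, runs of C and T are long in Rpl27a, Rpl7a and Rpl38 and short in Rpl26 and Rpl41. Within 50 bases on either side of the start, the longest run was 14 bases in Rpl26 and 10 in both Rpl41 and Rpl38. Each line gives 30 bases of the genome, 5′ to 3′ on the strand of the gene, of which 10 lie before the RefSeq start and 20 from it on, with the longest run of C and T in capitals (RefSeq, GRCm38.p6). In the large subunit, the members with an entry and the lowest RD change were Rpl36a (chrX:134585644-134585673, + strand), Rpl26 (chr11:68901556-68901585, + strand) and Rpl27a (chr7:109519185-109519214, + strand), and those with the highest were Rpl38 (chr11:114668570-114668599, + strand), Rpl7a (chr2:26910797-26910826, + strand) and Rpl41 (chr10:128549149-128549178, - strand). In the small subunit, the lowest were Rps27 (chr3:90213629-90213658, - strand), Rps19 (chr7:24884666-24884695, + strand) and Rps4x (chrX:102189372-102189401, - strand), and the highest were Rps2 (chr17:24720053-24720082, + strand), Rps13 (chr7:116334171-116334200, - strand) and Rps27l (chr9:66946076-66946105, + strand).
Rpl36a: cccaggcaccgcctataaaCTTCCgttgcg
Rpl26: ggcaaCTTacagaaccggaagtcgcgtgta
Rpl27a: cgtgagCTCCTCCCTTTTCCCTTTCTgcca
Rpl38: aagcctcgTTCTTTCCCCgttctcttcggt
Rpl7a: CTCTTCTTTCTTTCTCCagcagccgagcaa
Rpl41: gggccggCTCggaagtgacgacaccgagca
Rps27: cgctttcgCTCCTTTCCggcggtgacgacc
Rps19: cggtgagtgagggCTCTgggtcgcggctgt
Rps4x: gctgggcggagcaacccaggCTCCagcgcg
Rps2: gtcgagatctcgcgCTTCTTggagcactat
Rps13: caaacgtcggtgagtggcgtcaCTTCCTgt
Rps27l: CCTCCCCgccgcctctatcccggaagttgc

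Of the 56 members, 43 had a promoter entry in the RefSeq table. A run of at least 8 C or T on the strand of the gene, within 50 bases on either side of the annotated start, was present in 35 of the 43 (81.4%), in 25 of 29 of the large subunit (86.2%) and in 10 of 14 of the small subunit (71.4%). The same run was present in 35.7% of all 32851 entries, in 30.8% of the tested transcripts with an entry, and in 38.5% of 52 mitochondrial ribosomal proteins. A stricter form, a C at the annotated start itself followed by at least 4 C or T, was found in 8 of the 43 (18.6%), which were Rpl28, Rpl35, Rpl38, Rplp2, Rps15a, Rps21, Rps27 and Rps6, against 2.51% of all entries and 0 of the 52 mitochondrial ones. For several members the RefSeq start lay at a distance from that of the Gencode transcript, for example 43 bases for Rpl7a and 137 for Rpl41, so that a tract can lie off the annotated base. Among the members with the stricter form, RefSeq minus Gencode was 493 bases for Rpl35, −470 for Rps15a and 281 for Rplp2. For Rpl28, Rps6, Rpl38, Rps27 and Rps21 it was 91, 45, 32, 3 and 2. A tract in these windows is a match of letters, and no transcription start was measured here.

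The cultures carried the markers of their labels in part. The oligodendrocyte markers Cnp, Mag, Mog and Myrf summed to 27.1 and 28 RNA FPKM in OPCs, all of it from Cnp, and to 1783 and 1482 in oligodendrocytes. Of 4 OPC markers 2 were listed and neither separated OPCs from oligodendrocytes by a higher level: Pdgfra, the PDGFA receptor, was 53.5 and 31.3 FPKM in OPCs and 105 and 101 in oligodendrocytes, and Ptprz1 was 210 and 238 against 203 and 248. The 4 listed proliferation genes (Top2a, Ccnb1, Pcna and Mcm2) summed to 346 and 478 RNA FPKM in OPCs and to 116 and 135 in oligodendrocytes, and all 4 fell in RNA and in footprints. Of 4 astrocyte markers 3 were listed, and Gfap was 0.155 and 0 in OPCs and 14.2 and 2.11 in oligodendrocytes. Slc1a3, which carried most of the astrocyte sum, went the other way, from 136 and 181 to 74.3 and 74.3, and the sum was 137 and 182 in OPCs and 94 and 77.7 in oligodendrocytes. The 4 neuronal markers summed to 21.6 and 15.5 in OPCs and to 44.2 and 47.6 in oligodendrocytes, mainly from Tubb3. The sum was thus higher in oligodendrocytes without overlap, while Rbfox3 and Snap25 each overlapped between the cell types. The listed microglial marker (1 of 4, Csf1r) and stem cell marker (1 of 2, Nanog) were under 1 FPKM in each RNA library and at 0 in footprints. The part of cell mixture or of the cell cycle in the results below was not tested. In cultures measured in bulk, fewer cells of a type and less RNA per cell cannot be told apart. The table gives no read counts. Steps in FPKM multiplied by length gave an estimated depth of 77.9 to 249 aligned megabases per library, lowest in the RNA-seq and footprints of oligodendrocyte culture 2. Each estimate carries a possible factor of 2, and a larger one in the RNA-seq of oligodendrocyte culture 2. There the estimate was 77.9 and the depth that scored highest was 468 megabases. At the estimated depths each of the 54 members tested in both kinds of library had the equivalent of at least 115 reads of 30 bases in every library. For most members counting error was therefore small beside the spread between cultures. Oligodendrocyte culture 2 listed 31.1% of transcripts at 0 in footprints, against 14.7% to 20.5% in the other footprint libraries.

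Ribosomal protein genes have many processed pseudogenes. In the members, a median of 98.7% of the 30-base words of the CDS occurred elsewhere in the genome, and 52 of the 56 had at least 50% of such words, against a median of 0% in the 60 mitochondrial ribosomal proteins. Reads of 18 bases or more that fit several places can be split or lost, so the level of a member is less certain than its number of reads would give. Rps3, at 20.1%, was among the tested members that shared least. It fell in footprints (log2 fold change −1.15 ± 0.15 SE, limma adjusted p = 0.0155, n = 2 cultures per cell type). Its RNA change did not pass (−0.49 ± 0.20, limma adjusted p = 0.109). The part of shared sequence in the changes of the members was not tested. Across the 54 tested members the shared percentage had a Spearman correlation of −0.034 with the RD change and of 0.28 with the RD in OPCs, given as a description over transcripts of the same libraries. Most members shared nearly all of their words, so the percentage had little spread and these correlations cannot decide that part.

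Ribosomal protein transcripts were among the most abundant in every library. They made up 9.53% and 9.93% of all listed RNA FPKM in OPC cultures 1 and 2 and 7.27% and 8.63% in oligodendrocyte cultures 1 and 2. In footprints their share was 10.0% and 11.2% in OPCs and 4.97% and 5.94% in oligodendrocytes. The footprint shares of oligodendrocytes thus lay below both OPC shares by a wide margin, and the RNA shares by a narrower one. Mitochondrial ribosomal proteins, which the same cells make for a different ribosome, held 1.02% and 1.10% of footprint FPKM in OPCs and 0.870% and 0.941% in oligodendrocytes. Among the 54 tested members the level varied widely: in OPC culture 1 RNA ran from 69.6 FPKM for Rpl29 to 1536 for Rps21, with a median of 498. Footprints in the same culture ran from 371 for Rpl29 to 10327 for Rpl41, the shortest ribosomal protein, with a median of 1318. Of the 100 transcripts with the highest footprint FPKM, 21 and 20 were members in OPC cultures 1 and 2, and 7 and 11 in oligodendrocyte cultures 1 and 2. In RNA the same counts were 32 and 34 in OPCs and 27 and 31 in oligodendrocytes.

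**Figure D1:**
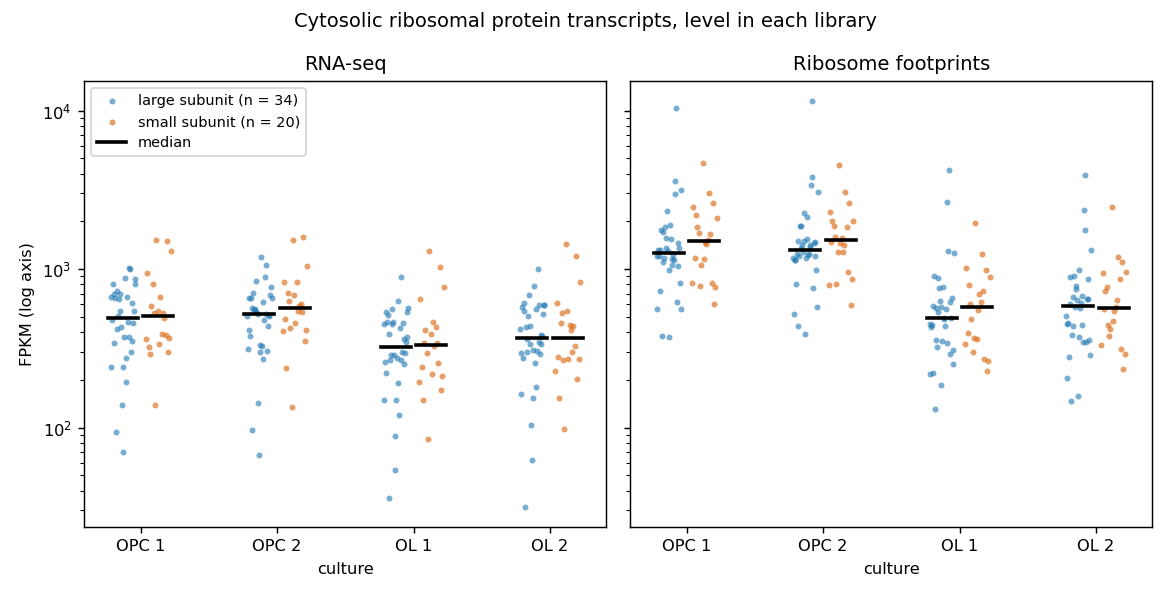
FPKM (log axis) of the 54 tested ribosomal protein transcripts in each of the 4 RNA-seq and 4 footprint libraries, where each point is a transcript, blue for the large and orange for the small subunit, and each black line is the median of a subunit. The OPC and oligodendrocyte points overlap in RNA, and the footprint medians are lower in both oligodendrocyte (OL) cultures than in both OPC cultures for each subunit.

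Members that were not tested were Rpl10l and, except in footprints, Rpl39l, both copies of a more widely used gene. Rpl10l was at or near 0 in all 8 libraries, with a highest value of 0.21 FPKM. Rpl39l was listed at 0 in all 4 RNA libraries and at 16.7, 11.3, 9.82 and 2.20 footprint FPKM in OPC cultures 1 and 2 and oligodendrocyte cultures 1 and 2. Its footprint change did not pass the test (−1.53 ± 0.84 on the log2 scale, limma adjusted p = 0.260).

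In RNA, 18 of the 54 tested members were lower in oligodendrocytes at a limma adjusted p under 0.05, and none was higher (log2(FPKM + 0.1), Benjamini-Hochberg over 8346 tested transcripts). Of all tested transcripts 20.2% were lower and 13% higher by the same test. The 18 were 10 of 34 in the large and 8 of 20 in the small subunit. When cultures were paired by origin (the replicate block), 39 members were lower, against 24.8% of all transcripts in that fit. All 54 log2 fold changes were below 0, with a median of −0.55 against −0.23 over all tested transcripts. In 49 of the 54, both oligodendrocyte cultures lay below both OPC cultures, a pattern that 44.2% of all tested transcripts showed. Under median-ratio scaling of the libraries, which moved the median of all transcripts by 0.18, the members' median was −0.37 and 4 passed the test as lower, against 15.2% of all transcripts. Without any single culture at most 1 passed, against 2.13% and 1.43% of all transcripts without OPC culture 1 or 2 and 22.2% and 11.1% without oligodendrocyte culture 1 or 2. The size of the RNA decrease thus depends on the scale that is taken as constant, and the number past the threshold on the fit.

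Rpl21, a protein of the large subunit, fell most. Its RNA was 93.3 and 95.8 FPKM in OPCs and 35.8 and 31.7 in oligodendrocytes, which is −1.49 ± 0.16 on the log2 scale (adjusted p = 0.00237, 2.80-fold lower). The groups were far apart, and the cultures of each group were close to each other. Rpl41 was 1003 and 1055 FPKM in OPCs and 457 and 595 in oligodendrocytes (−0.98 ± 0.19, adjusted p = 0.0138). Rpl23a, at the rim of the tunnel through which the new protein leaves the ribosome, was 508 and 562 in OPCs and 289 and 302 in oligodendrocytes (−0.86 ± 0.15, adjusted p = 0.0101). In the small subunit, Rps13, Rps16 and Rps6 fell most, with log2 fold changes of −0.87 ± 0.16, −0.80 ± 0.17 and −0.80 ± 0.17 (adjusted p = 0.0125, 0.0170 and 0.0184). At the other end, Rpl38, a large-subunit protein known from mouse mutants with skeletal patterning defects, was 1018 and 886 FPKM in OPCs and 886 and 995 in oligodendrocytes, so that the groups overlapped (−0.016 ± 0.17, adjusted p = 0.953). Rpl19, Rpl5, Rps21, Rps28 and Rps27 had log2 fold changes of −0.14, −0.16, −0.16, −0.33 and −0.41 and did not pass the test. With median-ratio scaling the values of Rpl38, Rpl19, Rpl5 and Rps21 were above 0, at 0.17, 0.045, 0.017 and 0.017.

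Footprints fell in nearly the whole family. Of 55 tested members, 53 were lower in oligodendrocytes (limma, adjusted p under 0.05 over 8342 tested transcripts), and none was higher. Of all tested transcripts 10.8% were lower and 12.8% higher. The 53 were 33 of 35 in the large subunit and 20 of 20 in the small subunit, and the other two were Rpl38 and Rpl39l. The median log2 fold change was −1.32, or 2.50-fold lower, against −0.16 over all tested transcripts. In all 55 members both oligodendrocyte cultures lay below both OPC cultures, which held for 37.9% of all tested transcripts. The count rests on the number of cultures: without either OPC culture 0 members passed in limma (52 and 49 at an unadjusted p under 0.05), nor did any of the 8320 and 8375 tested transcripts. Without oligodendrocyte culture 2 16 members passed, against 3.79% of all transcripts, and without culture 1 50 passed, against 29.4%, while the median stayed between −1.38 and −1.29.

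Rpl36a, a large-subunit protein, had the largest footprint decrease of the tested members. It was 1133 and 1428 FPKM in OPCs and 340 and 346 in oligodendrocytes (−1.89 ± 0.15, adjusted p = 0.00713, 3.71-fold lower). Rps19, the small-subunit protein mutated most often in Diamond-Blackfan anemia, was 1686 and 1605 in OPCs and 483 and 441 in oligodendrocytes (−1.83 ± 0.12, adjusted p = 0.00513). In both genes the oligodendrocyte cultures lay far below the OPC cultures. Rpl23a fell from 1169 and 1356 FPKM to 324 and 438 (−1.74 ± 0.20, adjusted p = 0.0115), and Rpl27a from 2334 and 2269 to 633 and 751 (−1.74 ± 0.14, adjusted p = 0.00708). Rps27, a zinc finger protein of the small subunit, fell from 1158 and 1455 to 363 and 470 (−1.65 ± 0.20, adjusted p = 0.0132). Rps4x, encoded on the X chromosome, fell from 815 and 964 to 270 and 312 (−1.61 ± 0.15, adjusted p = 0.00812). The smallest decreases were those of Rpl38, Rpl27 and Rpl19. Rpl38 had 3611 and 3409 footprint FPKM in OPCs and 2633 and 2368 in oligodendrocytes (−0.49 ± 0.14, adjusted p = 0.0849), the groups did not overlap, and with the replicate block the adjusted p was 0.0177. Rpl27 had 1363 and 1289 FPKM in OPCs and 763 and 784 in oligodendrocytes (−0.78 ± 0.11, adjusted p = 0.0178), and Rpl19 1753 and 1504 against 902 and 885 (−0.86 ± 0.13, adjusted p = 0.0213). In the small subunit the smallest were Rps21, Rps27l and Rps9, at −1.07, −1.10 and −1.15, and all 3 passed the test.

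The order of the members by footprint change was much the same in the pair of cultures numbered 1 and in the pair numbered 2 (Spearman correlation 0.85 over 54 members). For the RNA change this correlation was 0.51 and for the RD change 0.42. These are descriptions over transcripts read from the same libraries, which also share composition and length. The SD of the footprint change over members was 0.27 on the log2 scale, with a median SE of 0.13 for a single member, and that of the RD change was 0.23 with a median SE of 0.23. The differences between members in RD change were therefore about as wide as the error of a member.

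**Figure D2:**
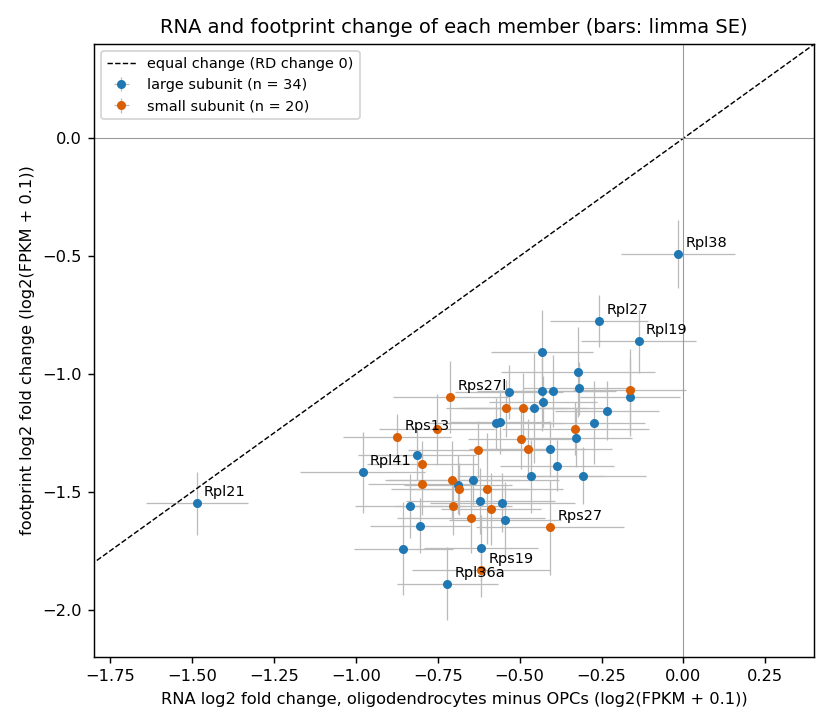
RNA change (x axis) against footprint change (y axis) of the 54 members tested in both, as log2 fold changes of log2(FPKM + 0.1), oligodendrocytes minus OPCs, with bars of 1 limma SE from 2 cultures per cell type. Every point lies below the dashed line of equal change, Rpl21 nearest to it and Rpl38 at the upper right.

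RD, the footprint level per RNA level, was lower in oligodendrocytes for every tested member, although no member passed the adjusted test by itself. The interaction term of limma, which asks if the cell types differ more in footprints than in RNA, called 0 of 54 members at an adjusted p under 0.05, and 1 of 8056 tested transcripts (0.0124%), which was not a member and was higher. At an unadjusted p under 0.05, 43 of the 54 were lower, against 1.46% of all tested transcripts. Limma on the log2 RD of each culture gave 0 members adjusted and 38 unadjusted, against 0 and 539 of all 8056 tested transcripts in either direction. The lowest adjusted p of a member was 0.431. All 54 values were below 0, which held for 42.3% of all tested transcripts, and the median was −0.78 against 0.10. In 53 of the 54, both oligodendrocyte cultures had a lower RD than both OPC cultures, a pattern found in 11.5% of the 6876 transcripts with an RD in each culture. With median-ratio scaling the median was −0.94 against −0.057 over all transcripts. The RD change is made of the same values as the RNA and footprint changes and is no separate measurement.

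The largest RD decreases were in Rps27, Rps19, Rpl36a, Rpl26 and Rpl27a. Rps27 had an RD of 2.12 and 2.12 in OPCs and 0.931 and 0.860 in oligodendrocytes (−1.25 ± 0.34 on the log2 scale, adjusted p = 0.791), and its start sequence above carries a run of 9 pyrimidines across the annotated base. Rps19 had 2.08 and 2.56 in OPCs and 1.18 and 0.840 in oligodendrocytes (−1.22 ± 0.26, adjusted p = 0.543). In both, the groups were well apart. Rpl36a had 2.44 and 3.01 against 1.28 and 1.13 (−1.17 ± 0.21, adjusted p = 0.431). Rpl26, at the tunnel rim, had 2.26 and 1.69 against 0.954 and 0.842 (−1.12 ± 0.23, adjusted p = 0.510), and Rpl27a 5.39 and 4.36 against 2.21 and 2.25 (−1.12 ± 0.22, adjusted p = 0.495). Rps20, the third in the small subunit, had 7.71 and 9.49 against 4.39 and 4.27 (−0.98 ± 0.20, adjusted p = 0.510).

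Rpl21 was the exception. Its RD was 4.07 and 4.55 in OPCs and 3.65 and 4.66 in oligodendrocytes, so that the groups overlapped (−0.063 ± 0.18, adjusted p = 0.949). Its RNA and its footprints fell together, by 1.49 and 1.55 on the log2 scale, and the sign of its RD change turned without OPC culture 2 (0.017) and without oligodendrocyte culture 1 (0.11). The next smallest decreases in the large subunit were those of Rpl41 (10.3 and 10.9 in OPCs, 9.19 and 6.63 in oligodendrocytes, −0.44 ± 0.26) and Rpl7a (2.94 and 2.88, 1.91 and 2.29, −0.47 ± 0.23). In the small subunit they were Rps27l (2.15 and 1.54, 1.5 and 1.3, −0.39 ± 0.23), Rps13 (2.27 and 1.94, 1.75 and 1.46, −0.39 ± 0.18) and Rps2 (1.46 and 1.92, 1.02 and 1.41, −0.48 ± 0.24). In these 5 the groups did not overlap, by a margin that was small in Rps27l, Rps2 and Rps13. Long pyrimidine runs stood at both ends of the order: of the printed starts, the run within 50 bases was 20 bases for Rpl27a and 21 for Rpl7a.

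**Figure D3:**
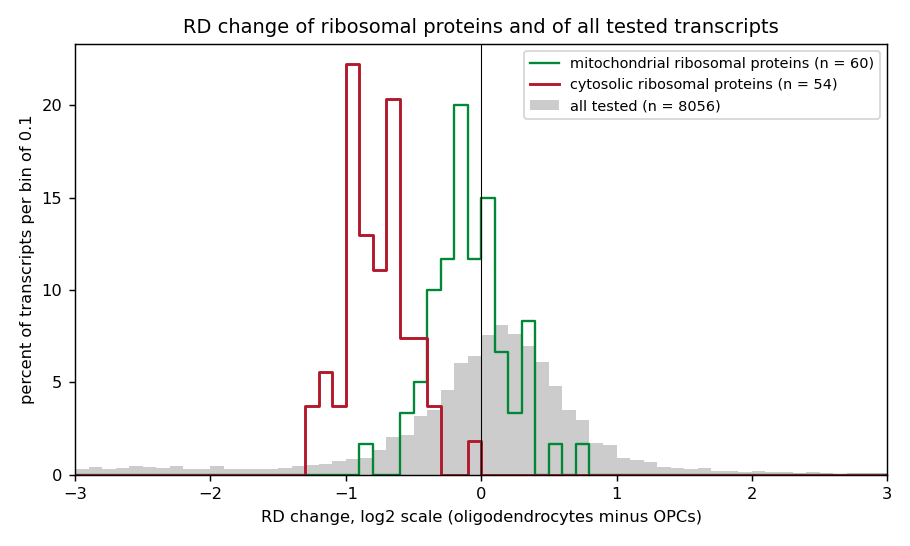
Distribution of the RD change (x axis, log2 scale, oligodendrocytes minus OPCs; y axis, percent of transcripts per bin of 0.1) for all 8056 tested transcripts (grey), the 60 mitochondrial ribosomal proteins (green) and the 54 cytosolic ribosomal proteins (red). The cytosolic members lie between −1.25 and −0.063 and the mitochondrial ones on both sides of 0; values beyond the axis are not drawn.

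By role, every tested member of the lists fell in footprints. At the stalk, the flexible arm that recruits the elongation factors, Rplp0, Rplp2 and Rpl12 at its base fell by 1.07, 1.27 and 1.47 on the log2 scale (adjusted p = 0.0105, 0.00895 and 0.00751). Their RNA changes were −0.53, −0.33 and −0.69, of which Rpl12 passed the test. Rpl5 and Rpl11, which carry an rRNA into the large subunit and can bind the p53 regulator Mdm2, differed in RNA: Rpl5 was 301 and 302 FPKM in OPCs and 251 and 289 in oligodendrocytes (−0.16 ± 0.15, adjusted p = 0.437), and Rpl11 was 241 and 311 against 149 and 163 (−0.81 ± 0.18, adjusted p = 0.0204). In neither gene did the groups overlap. Their footprint changes were −1.10 and −1.34 and both passed, which left RD changes of −0.93 ± 0.22 and −0.53 ± 0.21. Whether the 2 genes differ from each other was not tested.

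The 7 tested members that line the exit tunnel or its rim were Rpl17, Rpl39, Rpl23a, Rpl35, Rpl26, Rpl19 and Rpl31. All 7 were lower in footprints by the test, against 10.8% of all tested transcripts, with a median log2 fold change of −1.43. All 7 of their RNA changes were below 0, and 1, that of Rpl23a, passed the test, against 20.2% of all tested transcripts. Their median RD change was −0.89. Along the mRNA path of the small subunit, Rps2, Rps3 and Rps9 at the entry fell in footprints by 1.24, 1.15 and 1.15 on the log2 scale, and Rps28 at the exit by 1.23. Rps27a, made as a fusion with ubiquitin, had 1479 and 1581 footprint FPKM in OPCs and 550 and 540 in oligodendrocytes (−1.49 ± 0.11, adjusted p = 0.00644). Rps6, the protein that S6 kinase phosphorylates downstream of mTORC1, had 605 and 597 against 228 and 233 (−1.38 ± 0.097, adjusted p = 0.00610). In both genes the 2 oligodendrocyte values were close together and far below those of OPCs.

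Of the genes of Diamond-Blackfan anemia, a disease of too few red cell precursors, 5 are described: Rps19, Rpl5, Rpl11, Rpl35a and Rpl26. All 5 were lower in footprints by the test, against 10.8% of all tested transcripts, with a median log2 fold change of −1.34. All 5 of their RNA changes were below 0, and 1, that of Rpl11, passed the test, against 20.2% of all tested transcripts. Their median RD change was −0.93. Among paralogs, Rps27 and Rps27l differ in few residues and have separate genes. Rps27 RNA was 545 and 687 FPKM in OPCs and 390 and 546 in oligodendrocytes (−0.41 ± 0.23, adjusted p = 0.213), with the groups just overlapping, and Rps27l was 664 and 829 against 464 and 442 (−0.71 ± 0.18, adjusted p = 0.0288), without overlap. Their footprints went the other way round in size, −1.65 for Rps27 and −1.10 for Rps27l, so that the pair held both the lowest and the highest RD change of the small subunit. Of their CDS words 100% and 62.4% occurred elsewhere in the genome, and the difference between the pair was not tested. Rpl10, whose joining is a late step of large subunit maturation, and Rpl39 fell in footprints by 1.32 and 1.14 on the log2 scale (adjusted p = 0.00798 and 0.0386).

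The medians of the large and the small subunit lay close together. The median RNA change was −0.46 for the large and −0.62 for the small subunit, and their difference was 0.015 in the pair of cultures numbered 1 and 0.22 in pair 2. In footprints the medians were −1.32 and −1.35, with differences of 0.093 and 0.053 in the pairs. In RD change they were −0.76 and −0.79, with differences of 0.081 and −0.086, which turned sign between the pairs. Within a subunit the SD over members was 0.28 and 0.17 for the RNA change, 0.30 and 0.20 for the footprint change and 0.24 and 0.23 for the RD change, wider than each of these differences except that of 0.22 in RNA for the small subunit. By level per length, the median footprint FPKM of the small subunit was above that of the large subunit in OPC cultures 1 and 2 and oligodendrocyte culture 1, by 0.25, 0.21 and 0.23 on the log2 scale, and was 0.055 below it in oligodendrocyte culture 2. No test was made of subunits, since members are not replicates.

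Within each cell type, RD was read against the median transcript of the culture. In OPCs, 28 of 54 members had an RD above it and 1 below it at a limma adjusted p under 0.05, against 16.1% and 9.64% of all 8056 tested transcripts. In oligodendrocytes 8 were above and 18 below, against 17% and 10.7%. The count below rests on the fit: it was 6 with no minimum on FPKM, 9 with median-ratio scaling and 8 without the trend of limma, against 7.7%, 11.1% and 11% of all transcripts, while 8 were above in each. Without centring, where RD is read against equal FPKM and not against the median transcript, 32 were above and 1 below, against 44.5% and 2.23%. Without a fit, RD was also compared over the 6876 transcripts with an RD in each culture. There the median RD of the members was 2.64 and 2.65 in OPC cultures 1 and 2, above 73.1% and 72.7% of these transcripts. In oligodendrocyte cultures 1 and 2 it was 1.65 and 1.56, above 36.7% and 39.5%. The median of these 6876 transcripts was 1.75 and 1.80 in OPCs and 2.06 and 1.95 in oligodendrocytes. In OPCs 47 and 44 of the 54 members lay above this median, and in oligodendrocytes 18 and 19. Only Rplp0 had an RD below 1 in OPCs, while 10 members did in each oligodendrocyte culture. For the mitochondrial ribosomal proteins the median RD was 3.20 and 2.95 in OPCs and 2.93 and 2.83 in oligodendrocytes. In the fits, which were centred on the median of all tested transcripts, the median of the cytosolic members in OPCs was 0.66 on the log2 scale. It was 0.62 and 0.65 without OPC culture 1 or 2. In oligodendrocytes the fitted median was −0.21, and −0.15 and −0.28 without oligodendrocyte culture 1 or 2. Fewer members passed the test in each of these fits. Fewer of all transcripts passed too, except without oligodendrocyte culture 1.

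By subunit, 20 of 34 large and 8 of 20 small members were above the median transcript in OPCs, and in oligodendrocytes 5 were above and 11 below in the large and 3 above and 7 below in the small subunit. The large subunit had the higher median log2 RD in each of the 4 cultures, by 0.15, 0.13, 0.15 and 0.22, which is small beside the SD of 0.83 and 0.70 over the large and small members in OPCs. The order of the members by RD was nearly the same in the 2 cell types (Spearman correlation 0.94 over 54 members). The cultures of a cell type gave 0.91 in OPCs and 0.96 in oligodendrocytes.

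The highest RD was that of Rpl41, at 10.3 and 10.9 in OPCs and 9.19 and 6.63 in oligodendrocytes, or 2.63 ± 0.20 and 2.08 ± 0.20 above the median transcript on the log2 scale (adjusted p = 0.000561 and 0.00158). Rpl28 had 9.34 and 10.6 in OPCs and 6.53 and 6.20 in oligodendrocytes, and Rpl39 7.94 and 7.29 against 4.36 and 5.11. In the small subunit Rps20 had 7.71 and 9.49 against 4.39 and 4.27, Rps16 7.54 and 8.47 against 5.34 and 4.72, and Rps29 5.76 and 5.25 against 2.90 and 3.98. All 6 were above the median transcript in both cell types. The lowest was Rplp0, with 0.651 and 0.746 in OPCs and 0.476 and 0.481 in oligodendrocytes, or −1.29 and −1.95 from the median transcript (adjusted p = 0.00350 and 0.00119). It was the only member below the median transcript in OPCs by the test. Rpl9 and Rpl32 came next in the large subunit, at −0.20 and −0.18 in OPCs, which did not pass, and at −1.29 and −1.29 in oligodendrocytes, which did (adjusted p = 0.0113 and 0.00981). In the small subunit Rps2 and Rps9 were among the lowest in OPCs, at −0.024 and 0.046, and Rps27 and Rps19 among the lowest in oligodendrocytes, at −1.05 and −0.90 (adjusted p = 0.0326 and 0.0171).

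**Figure D4:**
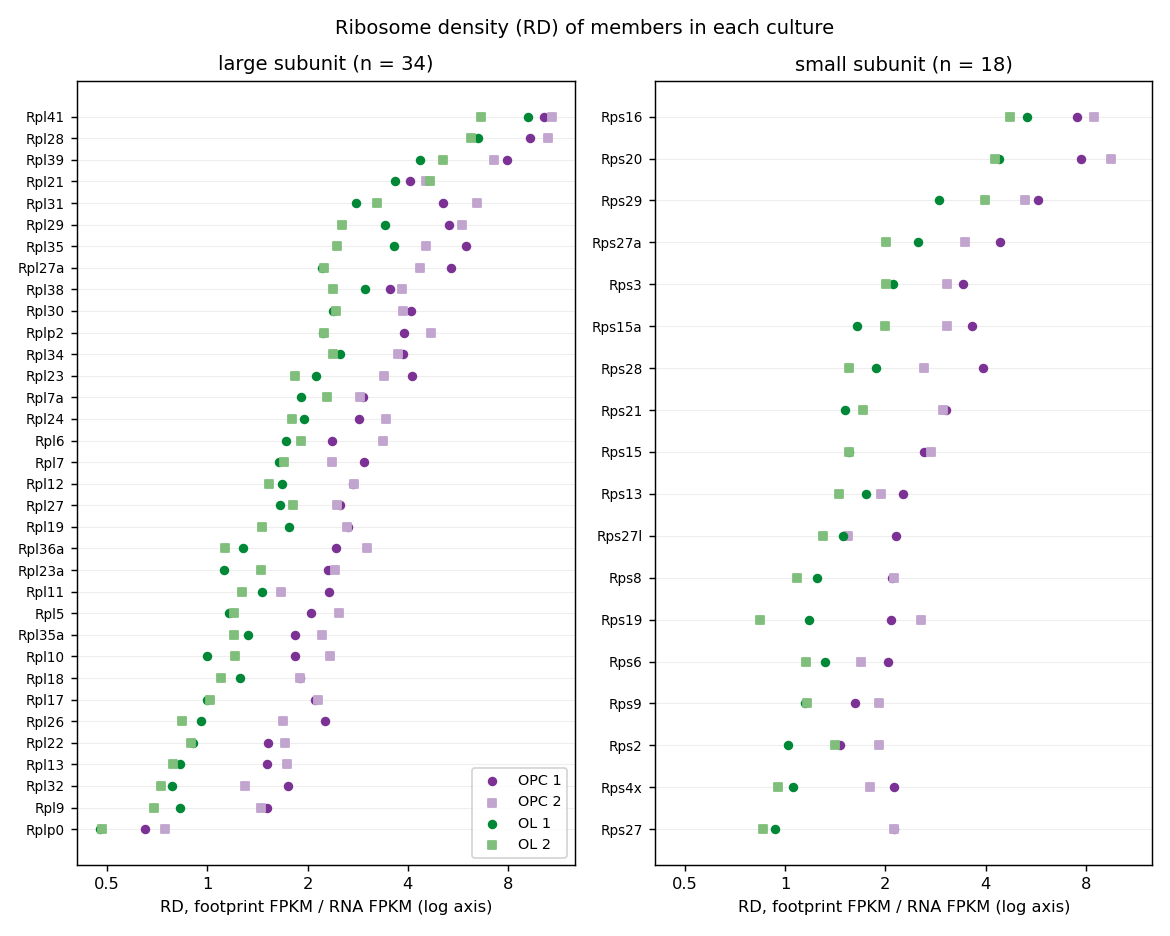
RD (footprint FPKM divided by RNA FPKM, log axis) of 34 large and 18 small subunit members in OPC cultures 1 and 2 (purple) and oligodendrocyte (OL) cultures 1 and 2 (green), ordered by their mean log2 RD. The green points lie to the left of the purple ones in every row drawn except that of Rpl21, where they overlap.

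The level of RD tracked the annotated lengths. RNA FPKM are divided by the length of the whole transcript and footprint FPKM by that of the CDS, and over the 54 members the ratio of the 2 lengths tracked the RD, with a Spearman correlation of 0.72 for OPCs and 0.69 for oligodendrocytes. Over the 6876 transcripts with an RD in each culture it was 0.37 and 0.37. With the RD change it was 0.081 over members. Rps20, for example, had an annotated transcript of 3706 bases for a CDS of 360, and Rpl41 of 582 for 78, while for Rpl7a they were 914 and 801. Ranks of members by RD within a cell type are therefore to be read with their transcript lengths beside them, and the part of the annotated length in them was not tested.

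**Figure D5:**
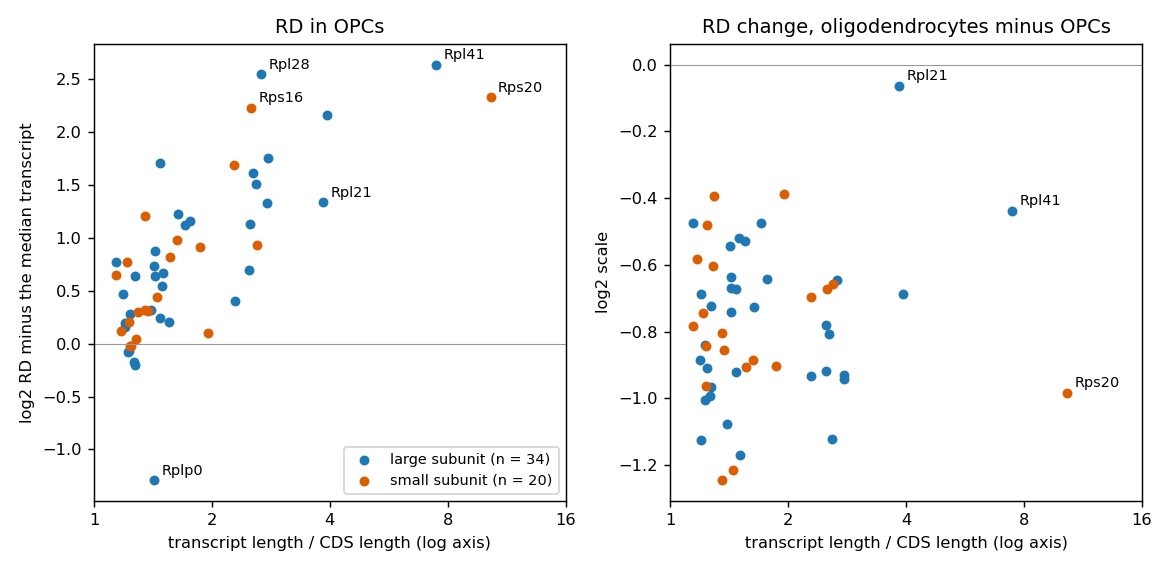
Left, RD in OPCs as log2 difference from the median transcript, and right, RD change on the log2 scale, each against the ratio of transcript to CDS length (log axis), for 34 large (blue) and 20 small (orange) subunit members. RD rises with the ratio on the left (Spearman correlation 0.72) and shows little relation to it on the right (0.081).

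Ribosomal proteins whose symbols the rule leaves out also fell in footprints. Of 5 described (Rack1, Rps3a1, Rpl22l1, Rpl36al and Rpl7l1), 5 were lower in footprints by the test, with a median log2 fold change of −1.40. In RNA 2 were lower (Rpl36al and Rpl7l1). The shares of all tested transcripts were 10.8% in footprints and 20.2% in RNA. The median RD change of the 5 was −0.825. Rpl22l1, a paralog of Rpl22, had 1203 and 1264 footprint FPKM in OPCs and 449 and 484 in oligodendrocytes and the lowest RD change of the 5 (−0.996 ± 0.20, adjusted p = 0.510). Rpl7l1 stood apart with an RD change of 0.28 ± 0.24: its RNA was 38.8 and 46.8 FPKM against 22.1 and 18.2, and its footprints 138 and 148 against 90.3 and 74.2.

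Other TOP mRNAs, which encode elongation and initiation factors and related proteins, are described for 9 genes, of which Rack1 was also counted above. In footprints 8 of the 9 fell, with a median log2 fold change of −0.99, and Eef1a1 did not pass (−0.56 ± 0.17, adjusted p = 0.0868). Of all tested transcripts 10.8% were lower in footprints. In RNA 4 were lower by the test and 1, Tpt1, was higher, against 20.2% and 13% of all tested transcripts. Tpt1, the translationally controlled tumour protein, was 493 and 426 RNA FPKM in OPCs and 705 and 661 in oligodendrocytes (0.58 ± 0.16, adjusted p = 0.0418), while its footprints went from 1599 and 1960 to 856 and 931 (−0.99 ± 0.16, adjusted p = 0.0221). Neither measure overlapped between the groups, and its RD change of −1.56 ± 0.22 was the largest of the list (adjusted p = 0.214). Pabpc1, the poly(A) binding protein, had an RD change of 0.29 ± 0.20, with both its RNA (−1.07) and its footprints (−0.78) past the test. Vim, an intermediate filament of progenitors, fell most in both, with −2.29 in RNA and −2.84 in footprints on the log2 scale. The median RD change of the 9 was −0.55, and 8 of 9 were below 0.

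Of the mTORC1 and TOP regulators, 9 were tested. In RNA, Eif4e, the cap-binding protein, Akt1s1, an inhibitor of mTORC1, and Larp1, which binds TOP mRNAs, fell (−0.71, −0.76 and −0.87). Larp1 was 27.9 and 20.9 RNA FPKM in OPCs and 13.9 and 12.4 in oligodendrocytes, and 40.8 and 38.5 against 19 and 12.4 in footprints (−1.36 ± 0.28, adjusted p = 0.0398). Eif4e also fell in footprints (−0.85 ± 0.14, adjusted p = 0.0237). Mtor itself had 9.46 and 13.9 footprint FPKM in OPCs and 19.1 and 23.3 in oligodendrocytes and did not pass (0.87 ± 0.32, adjusted p = 0.132). The median footprint change of the list was −0.047. Protein levels and phosphorylation were not measured in these libraries. Of 4 chaperones of single ribosomal proteins, Grwd1, which escorts Rpl3, fell in RNA (−1.90 ± 0.23, adjusted p = 0.00336) and, with Bccip, in footprints (−1.36 ± 0.17 and −0.78 ± 0.17, adjusted p = 0.0141 and 0.0459). Heatr3 and Tsr2 passed in neither (footprint changes −0.13 and 0.038). Their RD changes were all above 0, from 0.13 to 0.65.

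Mitochondrial ribosomal proteins gave a comparison with another large family of ribosomal proteins. Of 60 tested, 26 were lower in footprints and 21 in RNA by the test, against 10.8% and 20.2% of all tested transcripts. None was higher in either, against 12.8% and 13% of all tested transcripts. The median log2 fold changes were −0.63 and −0.49. Mrpl12 had a footprint change of −1.70 ± 0.18 (adjusted p = 0.0101) and an RNA change of −1.76 ± 0.15 (adjusted p = 0.00139). Mrps12 and Mrps33 were at 0.44 ± 0.22 and 0.40 ± 0.16 in footprints and did not pass. Their median RD change was −0.10, 38 of 60 were below 0, and none passed the adjusted test. The RD change of the cytosolic members lay between −1.25 and −0.063 and that of the mitochondrial ones between −0.85 and 0.79.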

How the data were processed

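Footprints and total RNA of 2 OPC cultures and 2 oligodendrocyte cultures were used, 8 libraries in all, grouped by their labels. The authors deposited FPKM: they clipped adapters, kept reads of at least 18 bases, mapped them to GRCm38 (mm10) with HISAT2 2.1.0 and tabulated FPKM with StringTie 1.3.5 and ballgown for canonical coding transcripts of Gencode, over the transcript for RNA-seq and the CDS for footprints. These values are not counts, so no count model was fitted, and reads that fit several places may be split in a way not stated in the sources used here.

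Members were matched by symbol. The members and the gene lists were chosen with earlier results of these data known. Transcripts whose mean was 1 FPKM or more were tested with limma 3.58.1 (R 4.3.3, eBayes with trend, two-sided, Benjamini-Hochberg over all tested transcripts, threshold 0.05) on log2(FPKM + 0.1), which understates the change of low values. RD change was the interaction term of cell type with library kind over 8 libraries. RD within a cell type was the footprint minus RNA contrast, each culture centred on its median log2 RD. With 2 cultures against 2 an exact permutation test cannot go below 0.333, so none is given, and p-values rest on the spread shared across transcripts.

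Members named with values are, in each measure and subunit, the 3 highest and 3 lowest log2 values and the members of the role, disease and paralog lists, and from each other list up to 3 at either end. Tpt1, Mtor, Eif4e, Larp1 and Pdgfra are described beyond that rule where a count turned on them. Lengths and CDS came from Gencode vM21, in which all 10987 listed transcripts were found, and starts and their sequence from RefSeq (GRCm38.p6). Words of 30 bases were counted on both strands of the genome. Depth was estimated from the 1500 lowest values of each library. The methods state that oligodendrocytes came from the corresponding OPC replicates, so same-numbered cultures were taken as pairs. The deviations of paired cultures correlated at 0.11 in RNA, 0.086 in footprints and 0.060 in RD over all tested transcripts, and at 0.45, 0.60 and 0.28 over members. The values of some genes are not reported here or drawn in the plot of RD by member, and the role, disease, marker and other lists are counted without them, while counts over all members include them. Ribosomal proteins with no row in the table were not analysed here, and protein sequences were not used.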

Additional observations from a re-analysis of the deposited data

How the results depend on the processing

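The direction of the family held under the alternatives run for its medians: the median footprint change of the members was between −1.38 and −1.29, and the median RD change between −0.94 and −0.73. Counts past the threshold were less stable, and the cause was not tested. For the RNA change, 18 members became 4 with median-ratio scaling and 39 with the replicate block, against the shares of all transcripts given above. Without the trend of limma 2 were lower, against 1193 of all 8346 tested transcripts. Fewer members than in the main fit passed without any single culture. For the footprint change, 53 became 34 without the trend and 0 to 50 without a culture. For the RD change, no member passed in any fit that kept all cultures. The median of the members was between −0.78 and −0.73 without a single culture. For the RD in OPCs, 29 became 52 without centring and 4 to 31 without a culture. For the RD in oligodendrocytes, 26 became 14 with no minimum on FPKM, 17 with median-ratio scaling and 16 without the trend. Of all tested transcripts 2257 of 9553, 2223 of 8041 and 2030 of 8056 passed in these fits. Fewer members also passed without any single culture. Those below fell from 18 to 6, 9 and 8 in the fits with no minimum, median-ratio scaling and no trend, with 8 above in each. Without centring 32 were above and 1 below, and the median was 0.68 in place of −0.21. The large minus small median in oligodendrocyte RD was 0.11 to 0.22 without a culture, in RD change −0.044 to 0.078, in RNA change 0.079 to 0.14, in footprint change 0.022 to 0.062 and in OPC RD 0.13 to 0.15. Pairing the cultures with the replicate block raised the RNA count as given, called Rpl38 in footprints, and moved no other count by over 1.5 times.

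For named members, 1068 values kept their direction and side of the threshold, 173 lost significance, 15 gained it and 17 changed sign. Sign changes in RNA with median-ratio scaling were those of Rpl19 (0.045), Rpl38 (0.17), Rpl5 (0.017) and Rps21 (0.017), and without a single culture the value of Rpl38 ranged from −0.12 to 0.084 (0.067 without oligodendrocyte culture 1). The RD change of Rpl21 was 0.017 without OPC culture 2 and ranged from −0.24 to 0.11. The RD in OPCs of Rpl32 was 0.59 without centring and −0.41 to 0.064 without a culture, and that of Rpl9 0.57 without centring. That of Rps2 was 0.043 with a pseudocount of 1, 0.10 with no minimum, 0.74 without centring and −0.20 to 0.15 without a culture. That of Rps9 was −0.084 with a minimum of 5 FPKM and −0.049 without OPC culture 2. A fit that leaves out a culture takes the lone culture to vary like the others. FPKM are relative within a library, so a change in total ribosome or mRNA number per cell was not visible.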

Other observations

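Composition set the members apart from most transcripts in ways that the rule did not use, given here as values without a test. The CDS of the members was short, with a median of 444 bases against 1377 over all listed transcripts, and their annotated 5′ UTR had a median of 98.5 bases against 169. Lysine made up a median of 11.9% of their codons and arginine 9.51%, against 5.53% and 5.59% over all listed transcripts. By subunit the median lysine percentage was 13.7% in the large and 10.3% in the small subunit, and in mitochondrial ribosomal proteins it was 7.15%. Of the lysine codons of a member a median of 30.4% were AAA, against 36.8% over all listed transcripts and 40.6% in the mitochondrial proteins. Of the phenylalanine codons 34.9% were UUU, against 42.9%. Over the 54 tested members the RD change had a Spearman correlation of 0.071 with the lysine percentage and of −0.20 with the AAA share, a description over transcripts of the same libraries.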
